A study of Mus musculus with 2 samples.

Results

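The 8 genes described here (*Slc2a1*, *Slc2a3*, *Slc16a1*, *Slc16a3*, *Slc16a7*, *Bsg*, *Ldha* and *Ldhb*) encode proteins that carry glucose and lactate across membranes or interconvert lactate and pyruvate. The list was set by name, but with earlier results of these data known. All 8 were found among the 25556 genes counted in brainstem nuclei. The nuclei came from 1 wildtype (WT) mouse and 1 mouse heterozygous for a knock-in missense allele, *Scn1a* A1783V/WT (HET), a model of Dravet syndrome. Both were female, untreated, on a C57Bl6 background (C57BL/6J in the methods of the study) and at postnatal day 41, an age reached by HETs that lived through the earlier period of high mortality. HETs were bred from males with a floxed-stop A1783V allele and females with Sox2-Cre, which acts in the early embryo, so the allele is present throughout the body and not only in the brain. WTs came from the same breeding. HETs did not need to have had a seizure to be included. Each genotype is 1 animal and 1 library, so the effect of genotype cannot be told apart from differences between 2 animals or 2 preparations, no test between genotypes was possible, and no difference below has a replicate check.

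Brain tissue runs mainly on blood glucose. SLC2A1 (GLUT1) carries glucose across the endothelial cells of the blood-brain barrier and into glia, and SLC2A3 (GLUT3) is the high-affinity carrier of neurons. Lactate and pyruvate move with protons through the monocarboxylate transporters SLC16A1 (MCT1), SLC16A7 (MCT2) and SLC16A3 (MCT4), and basigin, the product of *Bsg*, is the partner that brings MCT1 and MCT4 to the plasma membrane. Lactate dehydrogenase is a tetramer of LDHA and LDHB subunits, of which LDHA is typical of tissues that release lactate and LDHB of tissues that use it.

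RNA was counted as unique molecular identifiers (UMIs), each marking 1 captured molecule. A level is the UMIs of a gene divided by all UMIs of a library or cluster and multiplied by 1000000 (CPM), and a change is the log2 ratio of the HET level over the WT level. Levels of a gene are compared between cell types and not with those of another gene. Intervals are exact 95% intervals that cover counting error only. The WT library held 70301390 UMIs in 9259 nuclei and the HET library 66176778 UMIs in 9022 nuclei, at medians of 5456 and 5646 UMIs per nucleus. The median share of ribosomal protein UMIs was 0.696% in WT and 0.407% in HET nuclei, and 23 cell barcodes occurred in both libraries. Of the 16 deposited clusters, 12 held at least 30 nuclei of each library and were compared. Among the 16347 genes with at least 200 UMIs the median log2 ratio was −0.10, so a change of this size in a single gene is no departure from the other genes. Choroid plexus marker RNA (5 genes, *Ttr* among them) summed to 240 CPM in WT and 34.1 CPM in HET nuclei of neuron.1, the largest neuronal cluster, where those genes are not expected, and red blood cell markers (2 genes) to 25.7 and 61.5 CPM.

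The glucose transporters occupied different cells. *Slc2a1* (chr4:119108711-119137983, plus strand, GRCm38) was highest in the endothelial cluster, named endo, with 774 CPM (720 to 830) over both libraries. It followed at 141 CPM (114 to 173) in the ependymal cluster epend.1, 54.7 CPM (48.2 to 61.8) in astrocytes and 33.8 CPM (30.8 to 37.0) in oligodendrocytes. The interval of fibroblasts, at 27.3 CPM (17.5 to 40.7), overlapped those of oligodendrocytes and of microglia, at 14.3 CPM (10.0 to 19.8). The 6 neuronal clusters compared lay between 5.77 and 13.4 CPM. When each nucleus was reduced to 1000 UMIs, a depth that all nuclei reached, *Slc2a1* was expected in 54.7% of endothelial nuclei whose deposited cluster and second deposited label both name that type (median depth 2220 UMIs), against 5.30% of astrocyte nuclei and 0.922% of neuron.1 nuclei (3165 and 8125 UMIs). Without this reduction the shares were 76.1%, 16.6% and 7.24%.

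*Slc2a3* (chr6:122727809-122801640, minus strand) had the opposite distribution. The neuronal clusters stood between 55.4 CPM in neuron.4 and 75.9 CPM in neuron.7, and the interval of neuron.7 (59.0 to 96.2) overlapped those of neuron.1 (73.9 to 77.6), neuron.5 (56.1 to 84.0) and neuron.2 (58.9 to 72.5), while those of neuron.1 and neuron.2 did not overlap. Astrocytes, endothelial nuclei and oligodendrocytes held 18.2 CPM (14.6 to 22.5), 17.9 CPM (10.6 to 28.4) and 13.4 CPM (11.5 to 15.5). In the microglia cluster *Slc2a3* reached 62.7 CPM (53.3 to 73.2), within the range of the neurons. This cluster also held neuronal marker RNA at 9026 CPM in WT and 9888 CPM in HET, against 13813 and 13581 CPM in neuron.1. In the 108 of its 405 nuclei that the second label also calls microglia, *Slc2a3* was at 26.6 CPM (9.77 to 58.0).

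**Figure D1:**
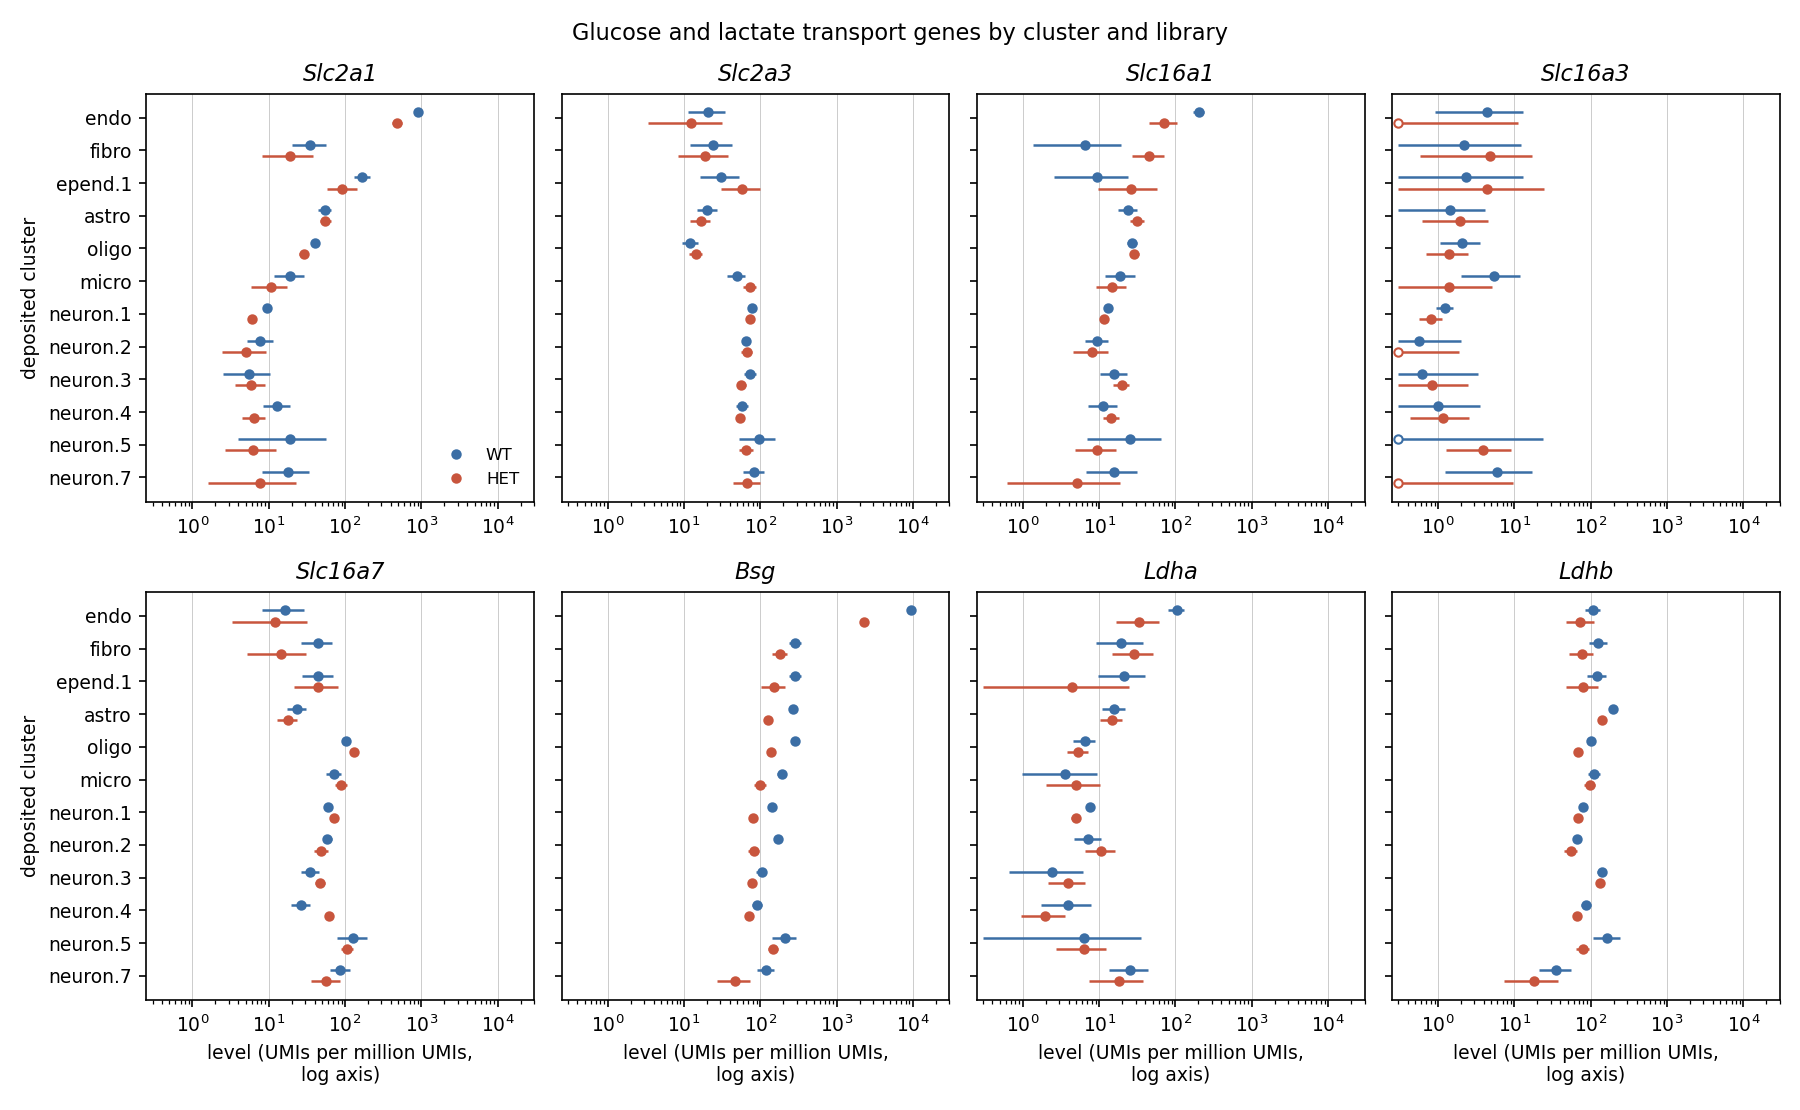
Level of each gene (CPM, log axis) in the 12 clusters compared, WT in blue and HET in red, 1 library each, with bars for exact 95% counting intervals and open circles at the left edge for 0 UMIs. *Slc2a1*, *Slc16a1*, *Bsg* and *Ldha* peaked in the endo cluster of the WT library, at 916, 203, 9319 and 104 CPM. *Slc16a7* was highest in oligodendrocytes and neuron.5. *Slc2a3* was highest in neurons in WT, while in HET the microglia cluster (73.4 CPM) stood beside neuron.1 (72.5 CPM).

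The lactate transporters were split in a similar way. *Slc16a1* (chr3:104638668-104658462, plus strand) was highest in the endo cluster, at 160 CPM (136 to 186). Oligodendrocytes at 28.1 CPM (25.4 to 31.1), astrocytes at 28.0 CPM (23.4 to 33.2) and fibroblasts at 25.1 CPM (15.7 to 37.9) came next and did not differ beyond their intervals. Neuron.1 held 12.4 CPM (11.7 to 13.2). *Slc16a7* (chr10:125219270-125389465, minus strand), the high-affinity carrier usually assigned to neurons, was highest among the clusters compared in oligodendrocytes, at 118 CPM (113 to 124), and in neuron.5, at 109 CPM (92.4 to 127), whose intervals overlapped. Microglia, neuron.7 and neuron.1 followed at 80.9, 73.7 and 65.3 CPM. Over the 108 microglia nuclei by both labels, *Slc16a7* stood at 138 CPM (93.5 to 195), an interval that holds the oligodendrocyte level. By cluster, astrocytes (20.1 CPM, 16.3 to 24.6) and the endo cluster (interval 8.37 to 24.7) were lowest. *Slc16a3* (chr11:120948480-120960868, plus strand) was close to the limit of detection, with 95 WT and 68 HET UMIs in all. In neuron.1 it stood at 1.03 CPM (0.834 to 1.27) and in oligodendrocytes at 1.68 CPM (1.06 to 2.51). In astrocytes, the cell type for which MCT4 is best known, it stood at 1.70 CPM (0.732 to 3.34). These intervals overlapped. The microglia cluster read 3.17 CPM (1.37 to 6.25) from 8 UMIs, above the interval of neuron.1 but overlapping those of oligodendrocytes and astrocytes. The 108 microglia nuclei by both labels read 13.3 CPM (2.75 to 38.9), from 3 UMIs.

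*Bsg* (chr10:79704491-79711969, plus strand) reached 7029 CPM (6866 to 7195) in the endo cluster. The other 11 clusters compared lay between 76.2 CPM in neuron.4 and 238 CPM in epend.1. Among clusters too uneven to compare, the choroid plexus-rich epend.2 (108 WT and 6 HET nuclei) held 605 CPM in WT.

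The lactate dehydrogenase subunits differed in where they lay. *Ldhb* (chr6:142490249-142507957, minus strand) was highest in astrocytes among the clusters compared, at 167 CPM (156 to 179), followed by neuron.3 at 135 CPM (125 to 145). Oligodendrocytes and neuron.1 held 82.7 CPM (77.9 to 87.6) and 74.5 CPM (72.7 to 76.3), and neuron.7 was lowest, at 27.9 CPM (18.1 to 41.2). The small cluster neuron.9 (35 WT and 2 HET nuclei, WT median ribosomal share 11.1%) held 955 CPM of *Ldhb* in WT. *Ldha* (chr7:46841475-46855627, plus strand) was highest in the endo cluster, at 80.7 CPM (64.1 to 100), with fibroblasts at 23.9 CPM and neuron.7 at 22.3 CPM (13.6 to 34.5) next, and it was lowest in neuron.4, at 2.51 CPM (1.49 to 3.97).

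The *Ldha* share of all *Ldha* and *Ldhb* UMIs followed from these levels. In endothelial nuclei by both labels *Ldha* gave 75 of 132 UMIs, or 56.8% (exact Clopper-Pearson interval 47.9 to 65.4). Neuron.7 came next at 44.4% (29.6 to 60.0), from 45 UMIs. The share was 8.27% (6.51 to 10.3) in astrocytes, 7.86% (7.24 to 8.50) in neuron.1, 6.58% (5.26 to 8.13) in oligodendrocytes and 2.51% (1.49 to 3.93) in neuron.3. WT and HET shares had overlapping intervals in endothelial nuclei by both labels (58.3% and 47.1%), in neuron.7 (41.9% and 50.0%) and in astrocytes (7.30% and 9.34%). In neuron.1 the share was 8.63% (7.80 to 9.51) in WT and 6.75% (5.88 to 7.72) in HET, without overlap. The share may depend on how many reads of each gene could be placed, which was not examined. Over whole annotated transcripts, 33.0% of the 31-base words of *Ldhb* also occur in another gene, the uncounted *Gm5514*. For *Ldha* this was 19.6%, in genes such as the uncounted *Gm5452*. The part of these shared words in the *Ldha* share was not tested.

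**Figure D2:**
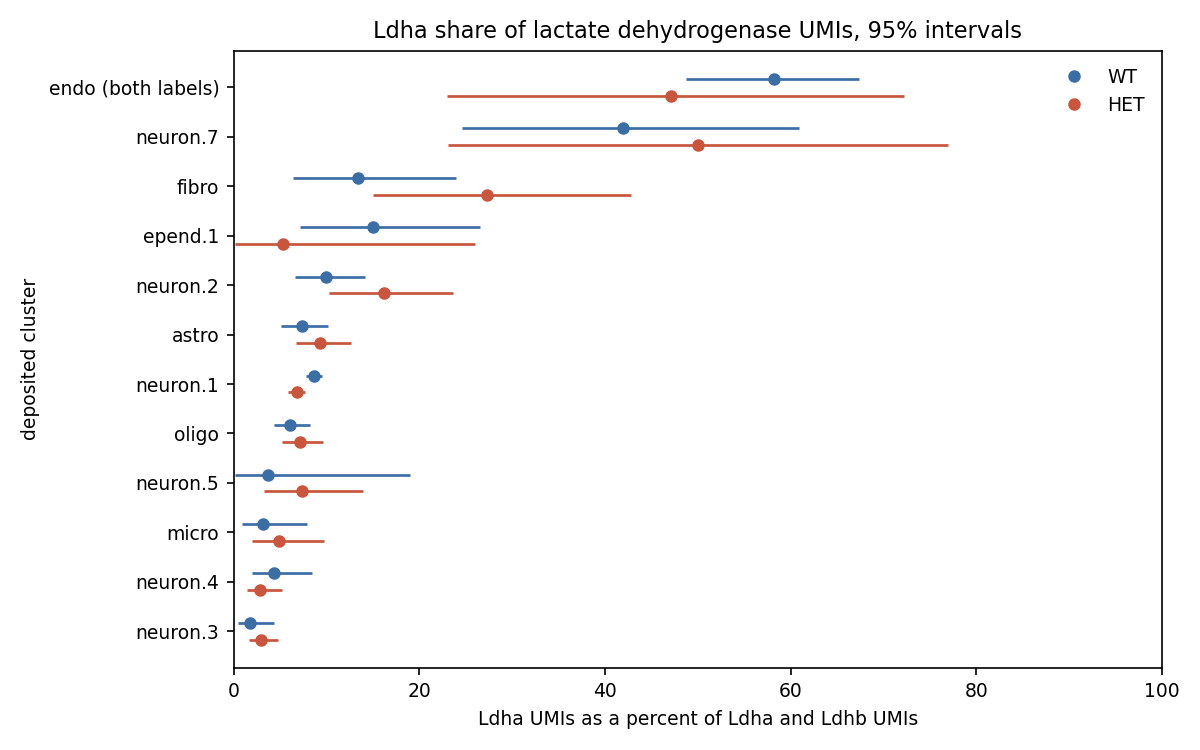
*Ldha* UMIs as a percent of *Ldha* and *Ldhb* UMIs (horizontal axis, 0 to 100) by cluster, WT in blue and HET in red, 1 library each, with exact 95% binomial intervals. Endothelial nuclei by both labels (58.3% in WT) and neuron.7 (41.9% in WT) stand above the astrocyte, oligodendrocyte and neuron.1 clusters, which lie under 10%.

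Over all nuclei, where fewer nuclei of a type and less RNA per nucleus cannot be told apart, 7 of the 8 genes were lower in HET and 1 was higher. Of the 21997 genes with at least 20 UMIs, 58.9% were lower. *Bsg* had 17513 UMIs in WT and 6686 in HET, or 249 and 101 CPM, a 2.47-fold lower level (log2 ratio −1.30, −1.34 to −1.26). The study, from these same libraries, had already listed *Bsg* among its top genes lower in HET. *Slc2a1* had 1653 and 899 UMIs, or 23.5 and 13.6 CPM, 1.73-fold lower (−0.79, −0.91 to −0.67). *Ldha* had 611 and 374 UMIs, or 8.69 and 5.65 CPM, 1.54-fold lower (−0.62, −0.81 to −0.43). Its ratio was −1.27 in 1 random draw of 1000 UMIs per nucleus, the lowest of 10 alternatives, of which the highest was −0.50. *Bsg*, *Slc2a1* and *Ldha* were the 3 members at least 1.5-fold lower in HET, the size used here as a call, against 15.3% of all genes tested. None was 1.5-fold higher, against 10.9%. The median over the 8 genes was −0.32, beside −0.092 over all genes tested.

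The other 5 genes differed by less. *Ldhb* went from 87.7 to 74.5 CPM (−0.24, −0.29 to −0.18) and *Slc2a3* from 66.5 to 60.1 CPM (−0.15, −0.21 to −0.09). *Slc16a3* read 1.35 and 1.03 CPM (−0.40, −0.87 to 0.07) and *Slc16a1* 16.3 and 15.4 CPM (−0.08, −0.21 to 0.04), both with intervals that span 0. The *Slc16a1* value changes sign, to 0.02, once ratios are centred on the median of the 16347 genes above. *Slc16a7* was the gene that was higher, at 58.9 CPM in WT and 74.1 CPM in HET (0.33, 0.27 to 0.39).

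Gene length moved with the ratios of all genes. *Slc16a7* spans 170 kb, and among 10 equal bins of gene length the genes in its bin had a median log2 ratio of 0.11. *Bsg* spans 7.48 kb, and the median of its bin was −0.24. The bins of *Slc2a1*, *Ldha* and *Ldhb* had medians of −0.091, −0.19 and −0.16. The part of length in the member ratios was not tested.

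**Figure D3:**
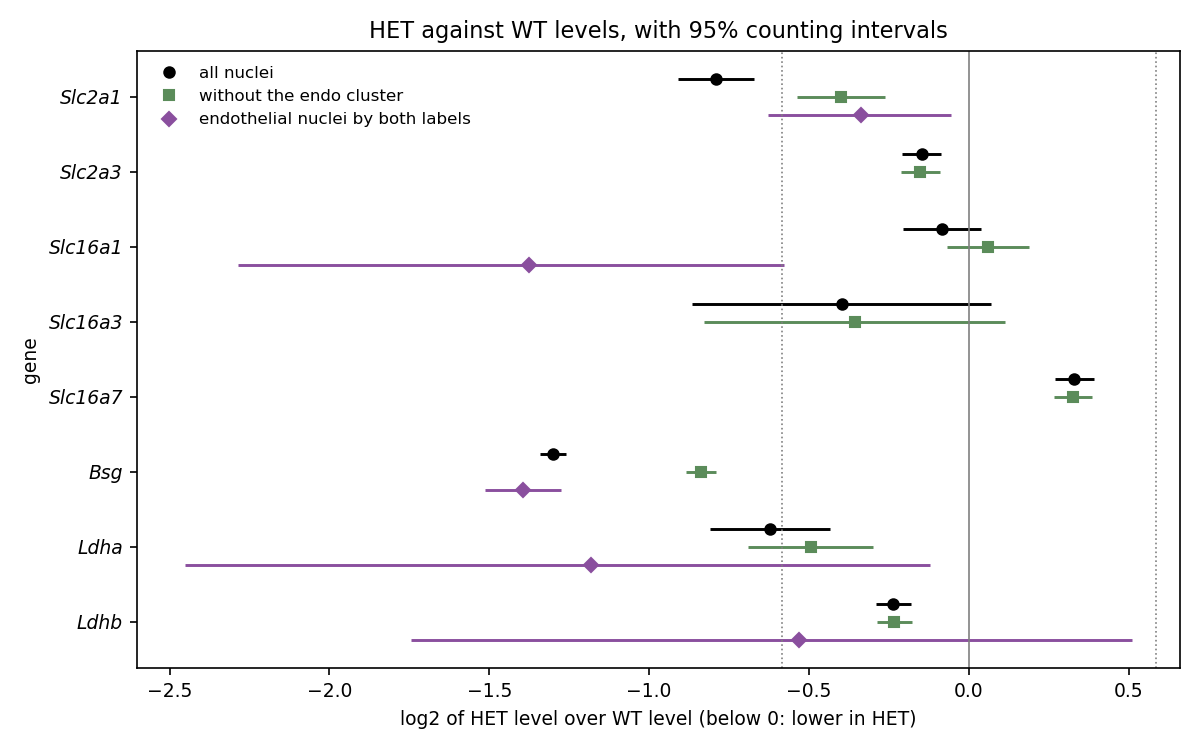
log2 ratio of HET over WT level for each gene over all nuclei (black circles), without the endo cluster (green squares) and in endothelial nuclei by both labels (purple diamonds, genes with at least 20 UMIs), with 95% counting intervals and dotted lines at 1.5-fold. *Bsg* lies at −1.30, −0.84 and −1.39, and *Slc16a1* at −0.08 over all nuclei and −1.38 in endothelial nuclei.

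The endo cluster was 2.40% of WT and 1.35% of HET nuclei (222 and 122), yet it gave 36.0% of all *Bsg* UMIs in WT and 11.2% in HET, and 37.4% and 17.5% of those of *Slc2a1*. Without it, *Slc2a1* read −0.40 (−0.54 to −0.26), *Ldha* −0.50 (−0.69 to −0.30) and *Slc16a1* 0.06 (−0.07 to 0.19), and *Bsg* alone was at least 1.5-fold lower, at 161 and 90.1 CPM (−0.84, −0.88 to −0.79), against 14.4% of all genes. This exclusion was chosen after the values were seen.

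Within the endo cluster, 4 of the 5 members with at least 20 UMIs were at least 1.5-fold lower in HET, against 26.8% of all genes tested there. *Bsg* went from 9319 to 2298 CPM, *Slc2a1* from 916 to 480, *Slc16a1* from 203 to 70.3 and *Ldha* from 104 to 33.6. The fifth, *Ldhb*, read 107 and 73.4 CPM (−0.54, −1.27 to 0.15). *Ldha*, with 70 WT and 11 HET UMIs, reached the minimum of 20 UMIs only through WT, where it was higher. The libraries did not hold the same nuclei in this cluster, since the second label agreed for 72.5% (66.1 to 78.3) of its WT and 39.3% (30.6 to 48.6) of its HET nuclei. Neuronal marker RNA in the cluster was 1562 CPM in WT and 3304 CPM in HET.

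Endothelial nuclei by both labels numbered 161 in WT and 48 in HET. There 3 of the 5 members were at least 1.5-fold lower in HET, against 27.0% of all genes tested. *Bsg* went from 12121 to 4610 CPM (−1.39, −1.51 to −1.28). *Slc16a1* went from 263 to 101 CPM (−1.38, −2.28 to −0.58), resting on 134 and 14 UMIs. *Ldha* went from 132 to 58.0 CPM (−1.18, −2.45 to −0.12), resting on 67 and 8 UMIs. *Slc16a1* and *Ldha* reached the minimum of 20 UMIs there only through WT, where they were higher. The count of 3 therefore rests in part on that filter. *Slc2a1* read 1145 and 906 CPM, a smaller difference that was no longer 1.5-fold (−0.34, −0.63 to −0.06), and *Ldhb* 94.3 and 65.2 CPM (−0.53, −1.74 to 0.51). In the nuclei of the cluster with another second label (61 WT and 74 HET), *Bsg* read 773 and 613 CPM and *Slc2a1* 216 and 169 CPM.

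In the endothelial nuclei by both labels, of 6 endothelial markers 3 were lower and 3 higher in HET, with a sum of 10459 CPM in WT and 11605 CPM in HET. The receptor gene *Flt1* read 3361 and 3922 CPM, the barrier transporter gene *Slco1a4* 2632 and 3632 CPM and the tight junction gene *Cldn5* 2776 and 2196 CPM. Pericyte and smooth muscle markers, by contrast, summed to 2232 CPM in WT and 1116 CPM in HET, with all 4 that had 20 UMIs lower and *Acta2* at 16 and 0 UMIs. Neuronal markers summed to 1389 and 2059 CPM, choroid plexus markers to 739 and 94.2 CPM, and the median ribosomal share was 3.18% and 1.04%. The part of any of these in the member differences was not tested.

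The libraries differed in *Bsg* at the median nucleus as well as among the highest. The median endothelial nucleus held 11 *Bsg* UMIs in WT and 2.5 in HET, at median depths of 2341 and 2058 UMIs. The 90th percentile was 110 UMIs in WT and 41.3 in HET, and the highest nucleus held 339 and 99. No *Bsg* UMI was found in 6.83% of the WT and 16.7% of the HET nuclei. For *Slc2a1* the medians were 2 and 1 UMIs, and for *Slc16a1* and *Ldha* most nuclei of both libraries held none (62.7% and 81.2% for *Slc16a1*). Nuclei of 1 animal are not replicates.

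**Figure D4:**
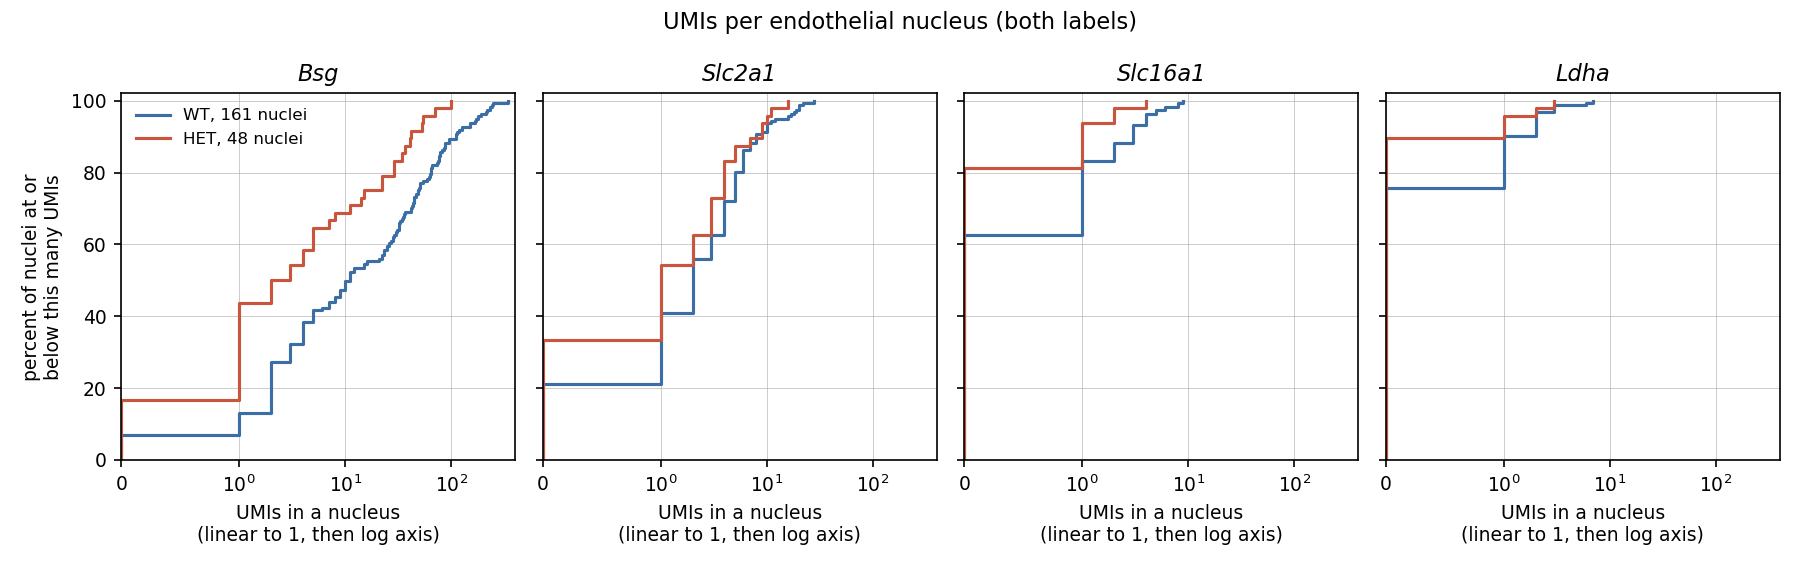
Percent of endothelial nuclei by both labels (161 WT in blue, 48 HET in red) that hold at most the number of UMIs on the horizontal axis (linear to 1, then log), for 4 genes. The HET curve of *Bsg* lies to the left of the WT curve at the quartiles, with medians of 2.5 and 11 UMIs, and the *Slc2a1* curves run closer together, with medians of 1 and 2.

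The promoters of 3 genes that were lower in HET in the endo cluster, *Slc2a1*, *Slc16a1* and *Ldha*, are shown as a description of sequence. These genes are textbook targets of hypoxia-inducible or E-box factors. Any part of such factors in the differences was not tested. In endothelial nuclei by both labels *Slc2a1* was not 1.5-fold lower. Of the 8 genes, 5 had a RefSeq promoter on GRCm38.p6 (all but *Slc2a3*, *Slc16a7* and *Bsg*). The 250 bases before the start of each transcript were searched on both strands for ACGTG, the core of the hypoxia response element, and GCGTG, an alternative core. Matches are in capitals below, from 5′ to 3′ on the coding strand. A CACGTG is an E-box too and counts as ACGTG on each strand. The *Slc2a1* window is chr4:119108495-119108713, shortened to 219 bases. It ends just past the GENCODE gene start at 119108711, so the ACGTG at its end lies partly inside the annotated gene. That of *Slc16a1* is chr3:104638414-104638663 and that of *Ldha* chr7:46845554-46845803. All 3 are on the plus strand, and the *Ldha* window lies inside the longest annotated *Ldha* gene model.
Slc2a1: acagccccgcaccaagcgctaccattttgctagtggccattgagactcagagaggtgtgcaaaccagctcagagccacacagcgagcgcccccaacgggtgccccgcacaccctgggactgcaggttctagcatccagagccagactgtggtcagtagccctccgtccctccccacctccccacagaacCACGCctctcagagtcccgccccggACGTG
Slc16a1: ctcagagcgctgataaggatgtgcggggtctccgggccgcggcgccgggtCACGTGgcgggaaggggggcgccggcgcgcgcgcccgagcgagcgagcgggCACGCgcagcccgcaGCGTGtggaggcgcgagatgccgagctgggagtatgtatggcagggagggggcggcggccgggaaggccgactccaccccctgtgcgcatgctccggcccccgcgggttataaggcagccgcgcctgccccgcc
Ldha: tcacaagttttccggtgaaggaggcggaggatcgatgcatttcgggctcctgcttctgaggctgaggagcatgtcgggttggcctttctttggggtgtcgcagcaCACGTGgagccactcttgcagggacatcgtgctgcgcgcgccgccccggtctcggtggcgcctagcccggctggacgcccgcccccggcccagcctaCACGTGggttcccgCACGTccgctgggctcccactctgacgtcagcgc

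The *Slc16a1* window held 2 matches of ACGTG and 2 of GCGTG, the *Slc2a1* window 1 of each, and the *Ldha* window 5 of ACGTG. Of the 32851 RefSeq promoter windows of 250 bases, 16.6% held ACGTG, 28.2% held GCGTG and 38.6% held either. A second *Ldha* start and that of *Ldhb* held 1 GCGTG each, and that of *Slc16a3* held 1 ACGTG in 236 bases. A match describes the letters only. The hypoxia factor genes *Hif1a* and *Epas1* read 42.0 and 38.1 CPM, and 10.5 and 9.19 CPM, in WT and HET over all nuclei. The endo cluster is 2.40% of WT and 1.35% of HET nuclei, so these values do not describe endothelial cells. The part of these factors in the member differences was not tested.

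*Bsg* was lower in HET in all 12 clusters compared. Its interval lay below 0 in 11 of them, with neuron.5 (−0.52, −1.06 to 0.06) the exception, and the level was at least 1.5-fold lower in 9. In neuron.1 it went from 144 to 79.6 CPM (−0.86, −0.92 to −0.80), in oligodendrocytes from 283 to 139 CPM (−1.02, −1.14 to −0.91) and in astrocytes from 267 to 128 CPM (−1.07, −1.27 to −0.87). Endothelial marker RNA, which should be absent from these clusters, summed to 18.9 and 14.8 CPM in neuron.1, to 42.6 and 29.0 CPM in oligodendrocytes and to 72.8 and 84.9 CPM in astrocytes, WT before HET. The part of free RNA in the *Bsg* differences outside the endo cluster was not tested. Over all nuclei the other basigin-family partners of monocarboxylate transporters differed little. *Emb* read 46.5 and 47.0 CPM (0.01, −0.06 to 0.09) and *Nptn* 265 and 279 CPM (0.08, 0.05 to 0.11). By cluster, *Emb* was at least 1.5-fold lower in HET oligodendrocytes (−0.59, −0.96 to −0.21). It was higher in neuron.1 (0.22, 0.13 to 0.30) and neuron.3 (0.54, 0.13 to 0.97), and in the other clusters compared its interval spanned 0.

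*Ldhb* was also lower in all 12 clusters, by less, with its interval below 0 in 6. The clusters share the same 2 libraries, so the agreement over clusters for *Bsg* and *Ldhb* is not repeated evidence. The share of all genes lower in all 12 was not counted. The *Ldhb* log2 ratio ranged from −1.06 in neuron.5 to −0.07 in neuron.3. In astrocytes, where it was highest, it went from 198 to 142 CPM (−0.48, −0.69 to −0.28), and in oligodendrocytes from 101 to 69.0 CPM (−0.55, −0.72 to −0.38). *Slc2a1* was lower in 8 of 10 clusters with at least 20 UMIs, with its interval below 0 in 5. In astrocytes it read 53.9 and 55.3 CPM (0.04, −0.33 to 0.40), while in oligodendrocytes it read 40.4 and 28.9 CPM (−0.48, −0.75 to −0.21). *Ldha* was compared in 7 clusters and its interval lay below 0 in 2, endo and neuron.1.

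In neuron.1, with 5032 WT and 4079 HET nuclei, 4 of the 8 members were at least 1.5-fold lower in HET, against 14.2% of all genes tested there. Apart from *Bsg*, these sat just past the call at −0.58: *Slc2a1* read 9.48 and 6.08 CPM (−0.64, −0.87 to −0.42), *Ldha* 7.56 and 4.92 CPM (−0.62, −0.88 to −0.37) and *Slc16a3* 1.22 and 0.812 CPM (−0.59, −1.25 to 0.05). With the median of genes with at least 200 UMIs there, −0.097, set to 0, *Bsg* alone remained. The main neuronal glucose carrier *Slc2a3* read 78.4 and 72.5 CPM (−0.11, −0.18 to −0.04), and *Slc16a7* 59.5 and 72.1 CPM (0.28, 0.20 to 0.35), beside a median of 0.15 for its length bin there.

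In oligodendrocytes (1767 WT and 2382 HET nuclei) 1 of 8 members, *Bsg*, was at least 1.5-fold lower, against 15.2% of genes. *Slc16a7* was higher in HET there too, at 103 and 130 CPM (0.34, 0.20 to 0.49), beside a median of 0.18 for genes in its length bin in that cluster. *Slc16a1*, the carrier for which oligodendrocytes are known, read 27.0 and 28.9 CPM (0.10, −0.20 to 0.40). In astrocytes (609 and 709 nuclei) 1 of 7 members, again *Bsg*, was at least 1.5-fold lower, against 18.4% of genes, and *Slc16a1* read 23.6 and 31.5 CPM (0.41, −0.11 to 0.95).

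**Figure D5:**
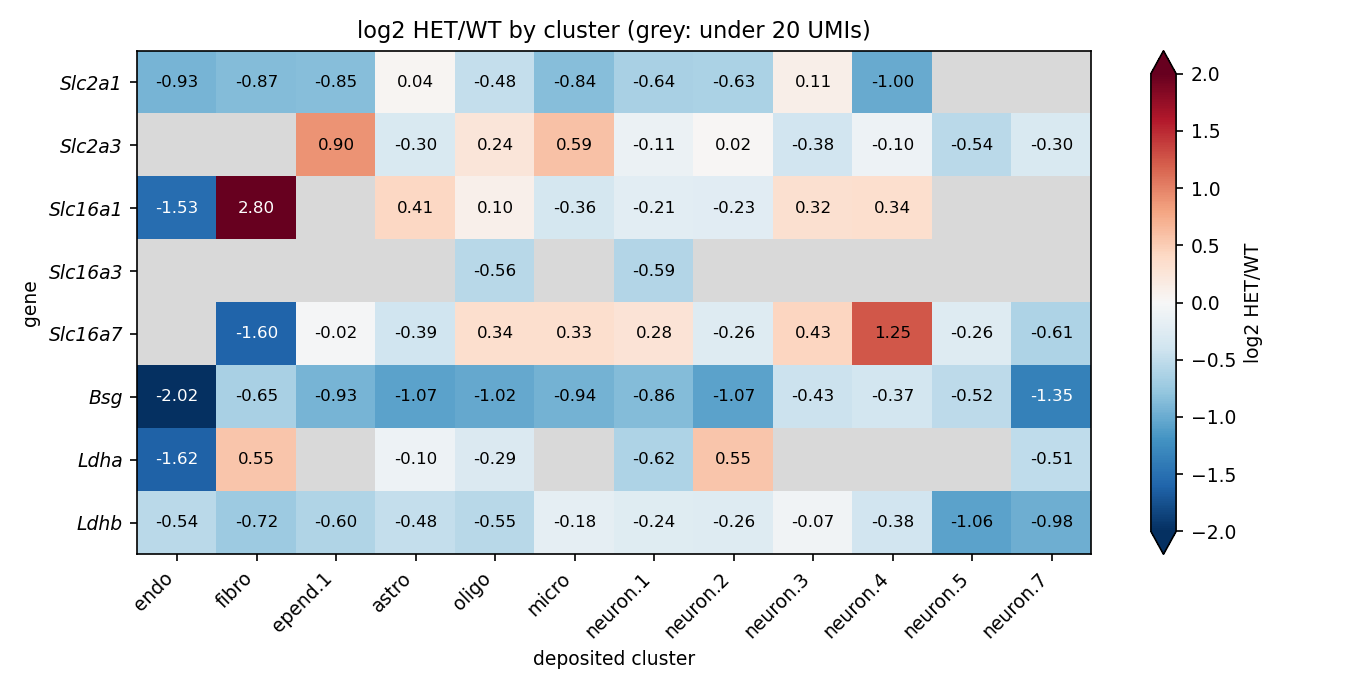
log2 ratio of HET over WT level for each gene (rows) in the 12 clusters compared (columns), with blue lower in HET, red higher and grey under 20 UMIs in both libraries together. The *Bsg* and *Ldhb* rows are below 0 in every column, from −2.02 to −0.37 for *Bsg*, and the other rows hold both signs except *Slc16a3*, which has 2 values.

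The genes whose pattern over 24 profiles (12 clusters in 2 libraries) was most like that of a member are given as a description. They share libraries and depth with it, and the measure is Pearson's r of log2(CPM + 1). For *Slc2a1* these were *Crip2* (0.95), *Gnai2* (0.92) and *Vim* (0.91), and for *Bsg* the endothelial surface antigen genes *Ly6c1* (0.97) and *Ly6a* (0.96) with *Myl6* (0.96). For *Ldha* they were *Gnb2* (0.88) and *Palmd* (0.87), and for *Slc16a1* they were *Pls3* (0.86), *Ctdsp1* (0.81) and *Pradc1* (0.81). *Slc2a3* was most like the neuronal channel genes *Unc80* (0.94) and *Cacna1b* (0.93) and *Ttll11* (0.94). *Slc16a7* was most like *Atp9a* (0.84), *Aldh1l2* (0.84) and *Ank3* (0.83), and *Ldhb* like *Nacc2* (0.87), the aspartate aminotransferase gene *Got1* (0.83) and *Metrnl* (0.80). *Slc16a3* had too few UMIs. Among the members, *Slc2a1* and *Bsg* were most alike (0.87), followed by *Slc16a1* and *Bsg* (0.77), and *Slc2a1* and *Slc2a3* ran most against each other (−0.67).

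Of 44 further genes of glucose and lactate transport and pyruvate use, 42 had at least 20 UMIs, and over all nuclei 26 lay below and 16 above their WT level, at a median log2 ratio of −0.11. At least 1.5-fold lower were 5 (15.3% of all genes) and 1.5-fold higher 3 (10.9%). The 5 were the testis-type dehydrogenase *Ldhc*, at 174 and 26 UMIs (−2.66), *Slc16a8* (MCT3) at 90 and 6 UMIs, *Slc16a11* at 69.4 and 38.7 CPM (−0.84), the intracellular glucose transporter gene *Slc2a8* at 25.4 and 14.7 CPM (−0.79) and *Slc16a12* (−0.61). Within neuron.1, *Ldhc* read −2.05, from 103 WT and 21 HET UMIs. Most of its other WT UMIs lay in neuronal clusters too uneven to compare, and their part in the −2.66 was not tested. *Slc16a8* lay almost wholly in epend.2, which held 78 of its 90 WT UMIs. The 3 higher genes, *Slc2a10*, *Slc5a1* and *Slc5a2*, had 100 UMIs or fewer each. The highest ratios among genes with at least 200 UMIs were those of *Slc16a13* (0.58), *Slc5a12* (0.43) and the hexokinase gene *Hk1* (0.14). The mitochondrial pyruvate carrier genes read 114 and 106 CPM (*Mpc1*, −0.10) and 69.7 and 53.7 CPM (*Mpc2*, −0.38), and the hexokinase gene *Hk2* 2.90 and 1.98 CPM (−0.55). The lactate receptor gene *Hcar1* had 6 and 7 UMIs.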

How the data were processed

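Nuclei of 1 WT and 1 HET brainstem were profiled with 10x Chromium 3′ libraries. Alignment (Cell Ranger, mm10) and filtering (Seurat 4.1) were done by the authors, who deposited UMI counts without normalization. The deposited percent values are the UMIs of mitochondrial or ribosomal protein genes as a percent of a nucleus's UMIs. The doublet score, the clusters and the second label were also deposited by the authors, and were not recomputed.

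UMIs were summed per library or per cluster and expressed as CPM. Clusters needed 30 or more nuclei from both libraries, and genes a joint total of 20 or more UMIs. Levels have exact Poisson, ratios exact conditional binomial and shares exact Clopper-Pearson 95% intervals, which cover counting error only. Positions are those of GENCODE vM21 on GRCm38, the assembly that mm10 names. The code was tested on simulated counts. The members, the lists of other genes and markers and the alternatives were chosen with earlier results of these data known. The alternatives were median scaling, edgeR TMM, equal cluster weights, nuclei with at least 2000 UMIs, the mean over nuclei of CPM, totals without ribosomal protein genes, clusters with up to 80% of nuclei from 1 library, 1000 UMIs drawn per nucleus, no minimum count, matching labels, and nuclei without the 5% highest doublet scores. Leaving out the endo cluster and all alternatives within it were added after seeing the data. Named genes are all members, the 3 genes most like each (1 of them is not reported here), and of the other pathway genes the 3 highest and 3 lowest ratios among those with at least 200 UMIs and the partners *Emb*, *Nptn*, *Mpc1*, *Mpc2*, *Hk1*, *Hk2*, *Slc16a8* and *Hcar1*. *Hif1a*, *Epas1*, *Slc16a12*, *Slc2a10*, *Slc5a1* and *Slc5a2* were named after their values were seen. Intervals came from scipy 1.17.1, with pandas 2.3.3 and numpy 2.4.6 in Python 3.11.15, TMM from edgeR 4.0.16 in R 4.3.3 and plots from matplotlib 3.10.9. The strand setting of the counting is not given in the sources used here, and 2 antisense genes overlap *Slc2a1* (7 and 9, and 4 and 34 UMIs in WT and HET) and 1 overlaps *Slc16a7* (19 and 96 UMIs).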

Additional observations from a re-analysis of the deposited data

Results flagged for a closer look

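For 3 genes the log2 ratio of HET over WT lay above 0 in some clusters and below 0 in others, each time beyond its counting interval. The differences between clusters were not tested, and each cluster has 1 library per genotype. *Slc2a3* was higher in HET in the microglia cluster (0.59, from 54 and 104 UMIs), much of which carries neuronal markers, and lower in neuron.1 (−0.11) and neuron.3 (−0.38). *Slc16a1* was higher in fibroblasts (2.80), from 3 WT and 19 HET UMIs, and lower in endo (−1.53) and neuron.1 (−0.21). *Slc16a7* was higher in neuron.1 (0.28), oligodendrocytes (0.34) and neuron.4 (1.25, from 26.2 to 62.3 CPM), and lower in fibroblasts (−1.60), from 20 and 6 UMIs. Neuron.4 held 114 WT and 339 HET nuclei.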

How the results depend on the processing

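No paired analysis was possible because each genotype has 1 library. Over all nuclei, 2 to 4 members were at least 1.5-fold lower in HET under the other settings listed in the methods, beside 3, and 1 without the endo cluster, an alternative chosen after seeing the data. The members' median log2 ratio of −0.32 read −0.21 with median scaling, −0.51 with the mean over nuclei of CPM, −0.49 with 1000 UMIs drawn per nucleus, −0.41 without the highest doublet scores, and −0.41 as a mean over members. The count of 4 in neuron.1 fell to 1 with median scaling. The count of 1 in oligodendrocytes rose to 3 with the mean over nuclei and to 2 without the highest doublet scores. The counts in astrocytes, in the endo cluster and among the other pathway genes stayed within 1.5 times under every alternative run. *Bsg*, *Slc2a1*, *Slc2a3*, *Slc16a3*, *Ldha* and *Ldhb* stayed below 0 and *Slc16a7* above 0 over all nuclei in all 10 alternatives, and *Slc16a1* changed sign in 3. The *Slc2a3* ratio in epend.1, 0.90 from 26 UMIs, reversed to −0.58 with the mean over nuclei. The cause of these moves was not tested. Depth limits *Slc16a3* to 163 UMIs in all, and *Slc16a1* and *Ldha* to 14 and 8 UMIs in the endothelial nuclei of HET.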
